A study of Drosophila melanogaster with 18 samples.

Results

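The genes described here are the CPR family of cuticle proteins of Drosophila melanogaster, taken as every gene whose symbol starts with Cpr followed by a digit. The rule found 70 genes among the 17609 in the deposited count tables, and it used only the symbol, not any measured value. Messenger RNA was measured in S2 cells, a line of embryonic origin with traits of blood cells (hemocytes), in 18 libraries that form 9 groups of 2. The groups, with the names printed in the labels, were wild type cells at 0, 40, 100 and 1000 µM CuSO4, the line S2-Zld without CuSO4 and at a dose printed as 1000 mM, the line S2-Grh without CuSO4 and at a dose printed as 100 mM, and the line S2-Twi at 40 µM. CuSO4 induces the factor carried by each line, and cells were harvested 48 h after it was added. Whether the induced Zld and Grh doses differ from those of wild type in unit or in amount is not settled by the labels, and each induced line was set beside wild type at the same printed number. The labels do not give the promoter, whether a line is 1 clone, or whether the replicates are separate cultures, so p-values measure only the spread between these libraries.

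CPR proteins carry the Rebers and Riddiford motif, which binds chitin, and together with chitin fibres they build the insect cuticle. Epidermal cells secrete them in sets that differ between embryo, larva, pupa and adult. Grainy head (Grh) is a factor of epidermis and other epithelia that drives cuticle and wound-repair genes, Zelda (Zld) opens chromatin for the first transcription of the embryo, and Twist (Twi) specifies mesoderm. What distinguishes one CPR protein from another is known for few of them, so each gene named here is described only as a structural cuticle protein.

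Each induced line had its own factor at a high level: zld reached 5360 ± 206 CPM (counts scaled to a library of 1000000 counted reads; SD, n = 2) in induced Zld cells, grh 999 ± 20.9 CPM in induced Grh cells and twi 1780 ± 256 CPM in induced Twi cells. The uninduced lines were not at the wild type level, with zld at 260 ± 65.3 CPM and grh at 40.4 ± 5.87 CPM, against 8.75 ± 10.2 and 0.606 ± 0.365 CPM in untreated wild type. Of 11 plasmatocyte (hemocyte) markers, 10 were at 1 CPM or more in both untreated wild type libraries and 8 were so in all 18 libraries. Libraries held 10459648 to 28575923 counted reads, so that 3 counts, used as a floor, equal 0.105 to 0.287 CPM. Replicates of wild type at 40 µM differed most from each other, with a chi-square of 37.7 per degree of freedom over genes against 2.01 to 18.6 in the other groups.

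Most of the family was silent or nearly so. No read was counted in any library for 7 of the 70 genes (10%, against 14% of all genes): Cpr49Ad, Cpr57A, Cpr62Ba, Cpr65Au, Cpr65Ax1, Cpr65Ax2 and Cpr67Fb. A further 31 genes never passed 3 counts in a library, which makes 38 of 70 (54.3%) at or under the floor everywhere, against 33% of all genes. Another 21 passed 3 counts somewhere and stayed under the level used below for expression. That left 11 genes (15.7%) at 1 CPM or more in both libraries of at least 1 group, against 48.9% of all genes. Of these, only Cpr50Cb and Cpr92A were at that level in every group (2.86%, against 39.6% of all genes). The largest silent run was the 65A cluster on 3L, where all 7 members stayed at or under 3 counts, followed by 47E on 2R, where 6 of 7 did, and 67F on 3L, where all 3 did. For 3 of the 7 genes with no counts, reads shared with another gene could be missing from the tables: all of the exonic bases of Cpr57A lie in another gene, Cpr65Au shares 93.3% and Cpr67Fb 85.1% with antisense RNAs, and the treatment of shared reads is not given in the sources used here.

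The number of expressed members depended on the group. Only Cpr50Cb and Cpr92A were at 1 CPM or more in both libraries of wild type at 0, 40 and 100 µM, of both uninduced lines and of induced Twi cells. In wild type at 1000 µM the number was 6, with Cpr49Ac, Cpr60D, Cpr64Ad and Cpr73D added. It was 4 in induced Zld cells, with Cpr60D and Cpr73D added, and 8 in induced Grh cells, with Cpr49Af, Cpr64Ac, Cpr64Ad, Cpr67B, Cpr76Bc and Cpr97Ea added. The share of all genes at that level moved only between 41.7% and 45.1%. Members with no count in either library numbered 16 in induced Grh cells and 26 to 36 in the other groups, while that share of all genes was 26.4% in induced Grh cells and 26.1% to 32.3% in the others.

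**Figure D1:**
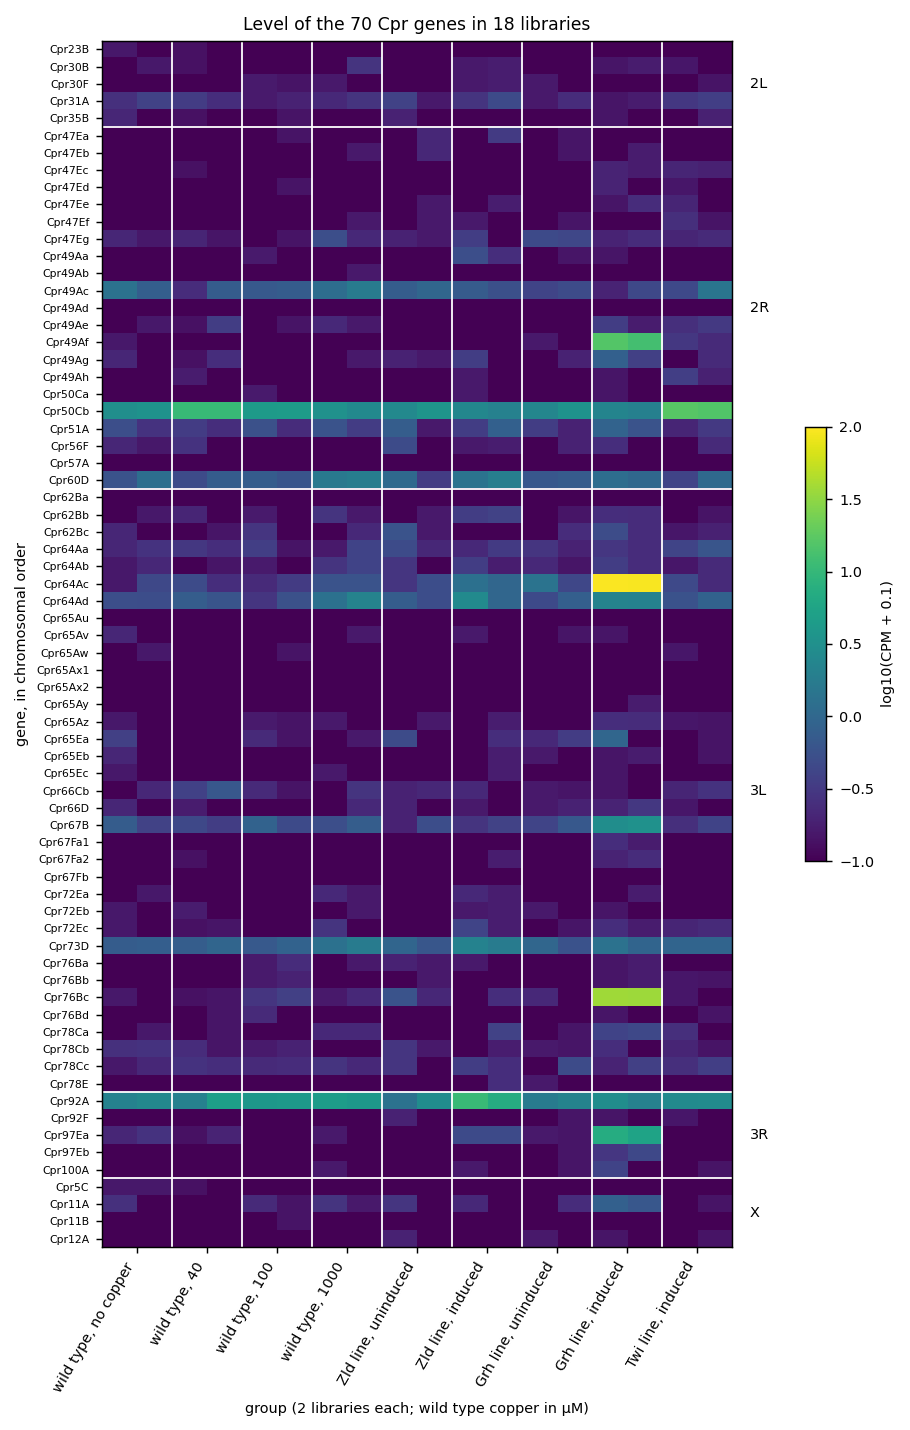
Level of each of the 70 Cpr genes (rows, in chromosomal order, with the chromosome arm at the right) in each of the 18 libraries (columns, 2 per group), as log10(CPM + 0.1). Dark rows are the silent genes, Cpr50Cb and Cpr92A are light in every group, and Cpr64Ac, Cpr76Bc, Cpr49Af and Cpr97Ea are brightest in the 2 libraries of induced Grh cells.

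A gene was counted as switched on where it was under 0.3 CPM in both libraries of the copper-treated wild type and at 1 CPM or more in both libraries of the induced line. Grh switched on 4 of 70 members, Cpr64Ac, Cpr76Bc, Cpr49Af and Cpr97Ea, whereas 126 of all 17609 genes (0.716%) met the same rule. Zld switched on none of the 70 (38 of all genes, 0.216%), and Twi none (48 of all genes, 0.273%); set against the uninduced Zld line the count for Zld was also 0 (0.744% of all genes). None of the 70 was switched off in any of the 3 lines by the same thresholds (0.148% of all genes for Grh, 0.0284% for Zld and 0.0625% for Twi). Set against the uninduced Grh line instead of wild type, 3 of the 4 met the rule (0.596% of all genes), and Cpr64Ac did not, because 1 uninduced library held it at 1.31 CPM. The counts of switched-on genes carry no test, and the genewise tests follow. The 4 genes were picked by their values in these same libraries, and they passed the filter on low counts only through induced Grh cells. Their p-values set the change against the spread between libraries and are no independent support for it.

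Cpr64Ac (FBgn0035512, 3L:4211964-4212915, minus strand, 2 exons; dm6) was by far the most abundant member of the family once Grh was induced. It was counted 1922 and 1357 times in the 2 induced Grh libraries, which is 94.99 and 93.3 CPM (94.1 ± 1.198, SD, n = 2). It was counted 2 and 5 times in wild type at 100 µM and 21 and 7 times in the uninduced Grh line, or 1.31 and 0.333 CPM. Both induced libraries thus lay far above all of the other 16, none of which passed 1.31 CPM, and the groups did not overlap. Pooled over libraries it was 502-fold higher than in wild type at 100 µM and 125-fold higher than in the uninduced line. On the log2 scale the increase was 9.09 ± 0.23 (SE; edgeR quasi-likelihood, adjusted p = 3.58e-12) against wild type and 6.99 ± 0.18 (adjusted p = 1.07e-11) against the uninduced line.

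Cpr76Bc (FBgn0036880, 3L:19520945-19527272, plus strand) encodes another structural cuticle protein and was second in level. It had 759 and 522 counts in induced Grh cells, 37.5 and 35.9 CPM, against 3 and 6 counts in wild type at 100 µM and 2 and 0 in the uninduced line. No library outside the induced Grh group passed 6 counts of it. The increase was 153-fold over wild type at 100 µM (log2 7.38 ± 0.21; edgeR adjusted p = 1.48e-13). Over the uninduced line the ratio was 684, with a 95% exact binomial interval of 189 to 5650 that covers counting error only.

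Cpr49Af (FBgn0033729, 2R:12405932-12407045, plus strand) had 313 and 185 counts in induced Grh cells, 15.5 and 12.7 CPM. It had 0 counts in both libraries of wild type at 100 µM, and 1 and 0 in the uninduced line. In the other wild type groups and in the Zld line it had no more than 1 count in a library, and in induced Twi cells 4 and 3. The level in induced Grh cells was at least 178-fold higher than in wild type at 100 µM, taking 3 counts over both of those libraries as the limit, and the edgeR adjusted p was 8.99e-11. Against the uninduced line the ratio was 531, with an interval of 94.9 to 21031.

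Cpr97Ea (FBgn0039480, 3R:27083130-27087778, minus strand) had 144 and 79 counts in induced Grh cells, 7.12 and 5.43 CPM, and was the lowest of the 4. Its counts were 0 and 0 in wild type at 100 µM, 1 and 1 in the uninduced Grh line, and 6 and 5 in induced Zld cells, the next highest group at 0.370 and 0.368 CPM. It was at least 79.7-fold higher in induced Grh cells than in wild type at 100 µM (edgeR adjusted p = 3.02e-09), and 119-fold higher than in the uninduced line, with an interval of 32.6 to 989. The rise of each of the 4 genes, against wild type and against the uninduced line, passed the test under every alternative tried. More expressing cells and more RNA per cell cannot be told apart in these bulk libraries.

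**Figure D2:**
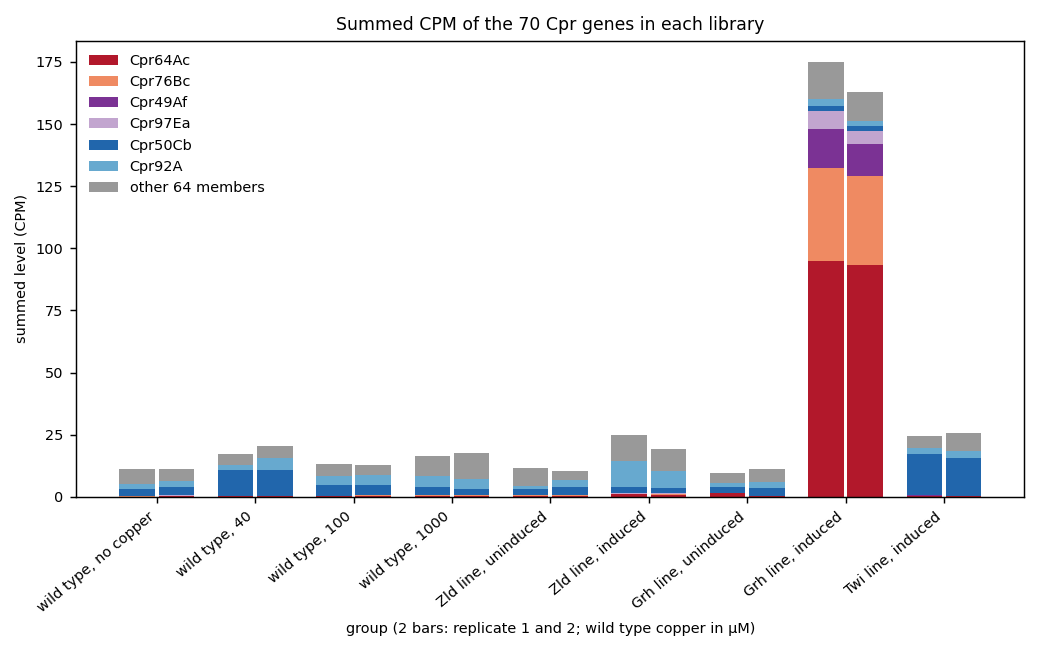
Summed CPM of the 70 Cpr genes in each of the 18 libraries, stacked by gene, with the 64 members other than the 6 named in grey. The 2 bars of induced Grh cells reach 175 and 163 CPM, all other bars lie between 9.59 and 25.6 CPM, and Cpr64Ac forms the largest block of the tall bars.

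Because of these 4 genes the family's summed level was 175 and 163 CPM in induced Grh cells, against 9.59 to 25.6 CPM in the other 16 libraries. The 4 genes supplied 155 and 147 CPM of it, 88.7% and 90.4%, and in the other libraries they summed to 0.259 to 1.56 CPM. The remaining 66 members summed to 19.7 and 15.6 CPM in induced Grh cells, which lies inside their range of 8.03 to 25.4 CPM elsewhere. Per kilobase of exon, which allows levels to be compared between genes, Cpr64Ac was at 106 CPM per kb in induced Grh cells, the 95.4th percentile of the 12962 genes with a count there. Cpr76Bc followed at 20.0 (70.9th percentile), Cpr49Af at 13.3 (62.7th), Cpr97Ea at 3.52 (49.2nd) and Cpr67B at 2.96 (48.3rd). In this order each of Cpr64Ac, Cpr76Bc and Cpr49Af was above the next in both libraries, but the libraries of Cpr97Ea (3.996 and 3.05) and Cpr67B (2.79 and 3.13) overlapped.

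Past these 4, another pair of structural cuticle protein genes with a low level everywhere rose with Grh. Cpr67B had 57 and 46 counts in induced Grh cells, 2.82 and 3.16 CPM, against 12 and 8 counts in wild type at 100 µM and 5 and 12 in the uninduced line, and no library outside the induced Grh group passed 0.776 CPM. Its log2 change was 2.61 ± 0.36 against wild type (edgeR adjusted p = 1.14e-05) and 2.73 ± 0.37 against the uninduced line (adjusted p = 3.07e-05). Cpr64Ad, which lies 2464 bases from Cpr64Ac on the opposite strand, had 42 and 30 counts, 2.08 and 2.06 CPM, against 3 and 10 counts in wild type and 6 and 15 in the uninduced line. Its log2 change was 2.72 ± 0.42 against wild type (adjusted p = 3.53e-05) and 1.91 ± 0.38 against the uninduced line (adjusted p = 0.00121). The induced Grh libraries did not overlap either control for these genes, but for Cpr64Ad they overlapped wild type at 1000 µM (1.21 and 2.11 CPM) and induced Zld cells (2.66 and 0.882 CPM).

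Only 11 of the 70 members passed the filter on low counts in the Grh fit. Against wild type at 100 µM, 7 were called higher and 1 lower, where 60.8% of the 8666 genes tested were called, 33.6% higher and 27.2% lower; the median log2 change was 2.61 over the 11 and 0.05 over all genes tested. Against the uninduced line 6 were called higher and none lower, where 16.7% of genes were called higher and 10.6% lower. Cpr64Ac, Cpr76Bc, Cpr49Af, Cpr97Ea and Cpr64Ad passed only through the induced group and so had to be higher there. These counts therefore say little beyond the genes named, and the p-values of those genes are no independent support for their rise. With the filter applied to the 4 control libraries alone, 6 of the 11 passed, and of these Cpr67B and Cpr60D were called higher and Cpr50Cb lower than in wild type at 100 µM (31.8% and 28.4% of all genes that passed in the same way). Against the uninduced line only Cpr67B of these 6 was called higher and none lower (14.4% and 11.1% of all such genes). The other calls against wild type were Cpr60D, with a log2 change of 0.99 ± 0.40 (adjusted p = 0.0412), which was lost in 9 of 10 alternatives, and Cpr50Cb, which was lower by a log2 change of -0.88 ± 0.22 (adjusted p = 0.00295). Cpr50Cb stood at 2.18 and 1.93 CPM in induced Grh cells, 4.21 and 4.35 in wild type at 100 µM and 2.92 and 3.25 in untreated wild type; the call was lost against the untreated cells (adjusted p = 0.148). Wild type at 100 µM itself differed from untreated wild type in 52.5% of genes tested.

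Without any filter, 46 of the 70 members had a higher pooled CPM in induced Grh cells than in wild type at 100 µM, 12 a lower one and 12 no count in either. Among all genes 36.4% were higher and 41.1% lower. The same counts were 32 higher and 16 lower for Zld and 33 higher and 16 lower for Twi, against 37.9% and 44.3% of all genes higher. Most of these differences rest on a few reads. Among genes under 1 CPM, Cpr11A had 15 and 8 counts in induced Grh cells against 3 over both libraries of wild type at 100 µM, and Cpr49Ag had 15 and 4 against 0. Cpr97Eb had 4 and 5 counts, and Cpr78Ca 6 and 5, where wild type at 100 µM had none. Cpr65Ea had 18 counts in 1 induced Grh library and 0 in the other, so its replicates disagree. When the filter was dropped, Cpr11A, Cpr49Ag, Cpr65Ea, Cpr78Ca and Cpr97Eb were called higher as well. That made 12 of 60 members called, 11 of them higher, where 38.8% of genes tested without the filter were called, 20.2% higher and 18.6% lower.

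**Figure D3:**
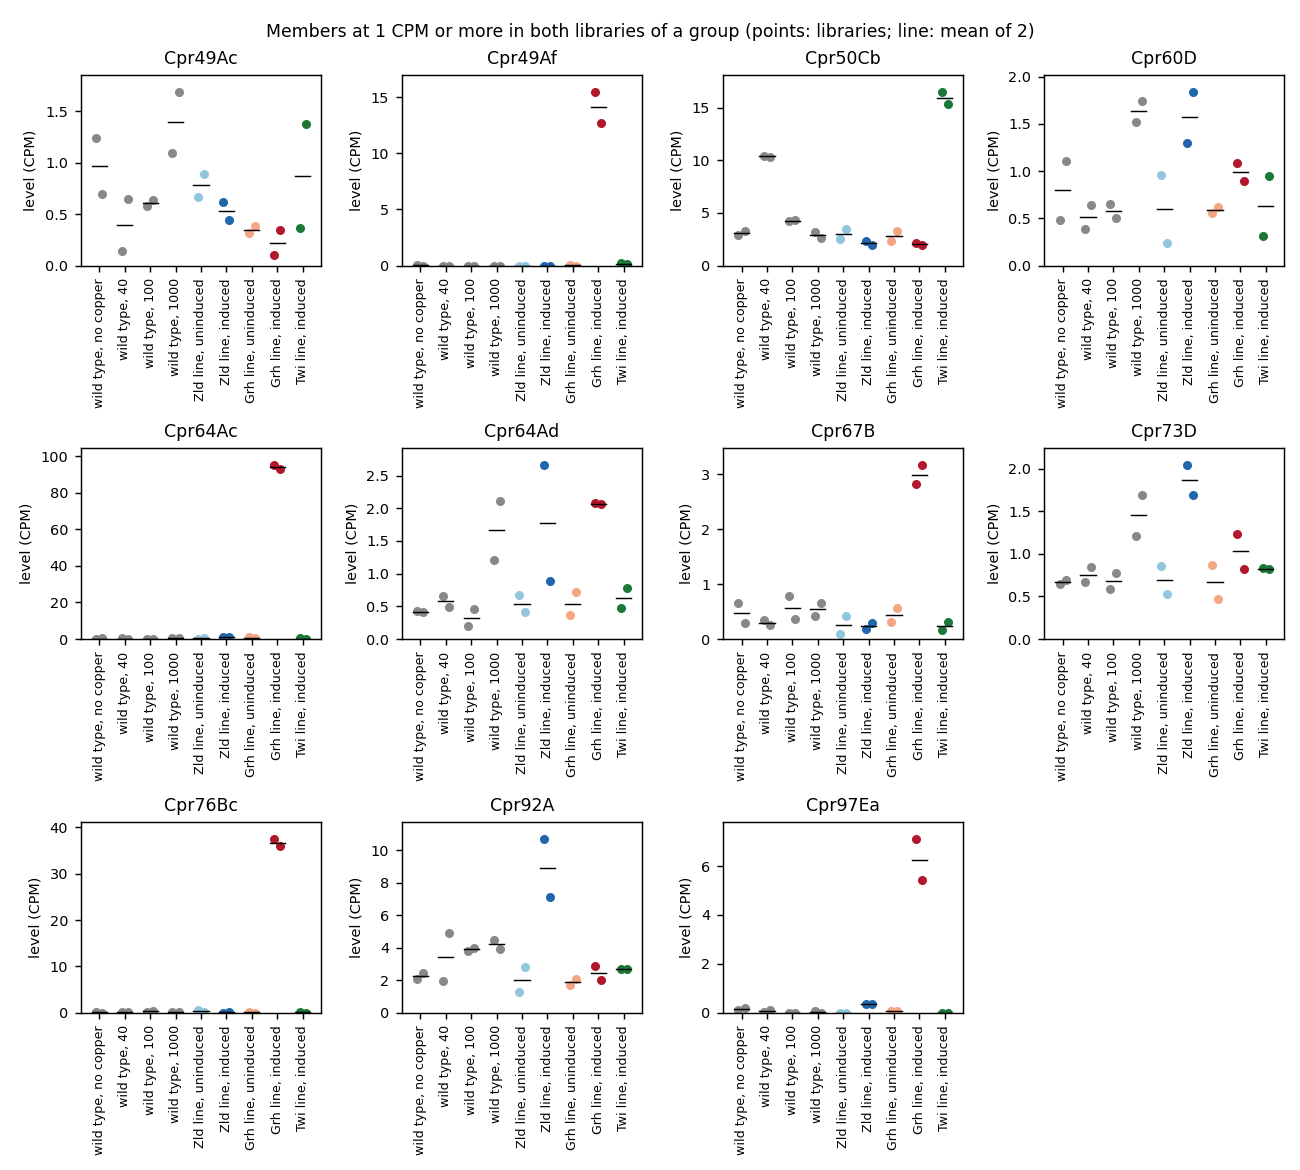
Level in CPM (linear axis from 0, scaled to each gene) of the 11 members that reached 1 CPM in both libraries of a group, with each library as a point and the mean of 2 as a line. The red points of induced Grh cells stand alone in Cpr49Af, Cpr64Ac, Cpr67B, Cpr76Bc and Cpr97Ea, Cpr50Cb is highest in induced Twi cells and wild type at 40 µM, and Cpr92A is highest in induced Zld cells.

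The 4 switched-on genes lie in 4 different places, and in each they have silent or nearly silent neighbours of the same family. The 70 genes fall into 33 cytological bands by their symbols, 12 of which hold at least 2 members and together 49 genes. The 4 bands with a switched-on gene hold 18 members. In band 64A, Cpr64Ab lies 424 bases from Cpr64Ac on the same strand and averaged 0.192 CPM in induced Grh cells, against 0.032 in wild type at 100 µM, and Cpr64Aa averaged 0.168 against 0.152 CPM. In band 76B, Cpr76Bb lies 526 bases from Cpr76Bc and never passed 3 counts in a library, nor did Cpr76Ba and Cpr76Bd. In band 49A, Cpr49Ag and Cpr49Ae lie 748 and 824 bases from Cpr49Af, at 0.508 and 0.158 CPM in induced Grh cells. In band 97E, Cpr97Eb lies 1926 bases from Cpr97Ea. Per kilobase, Cpr49Ag was at 1.14 and 0.423 CPM per kb in the 2 induced libraries against 14.65 and 12.04 for Cpr49Af, and Cpr97Eb at 0.188 and 0.326 against 3.996 and 3.05 for Cpr97Ea, so the switched-on gene was above its neighbour in both.

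**Figure D4:**
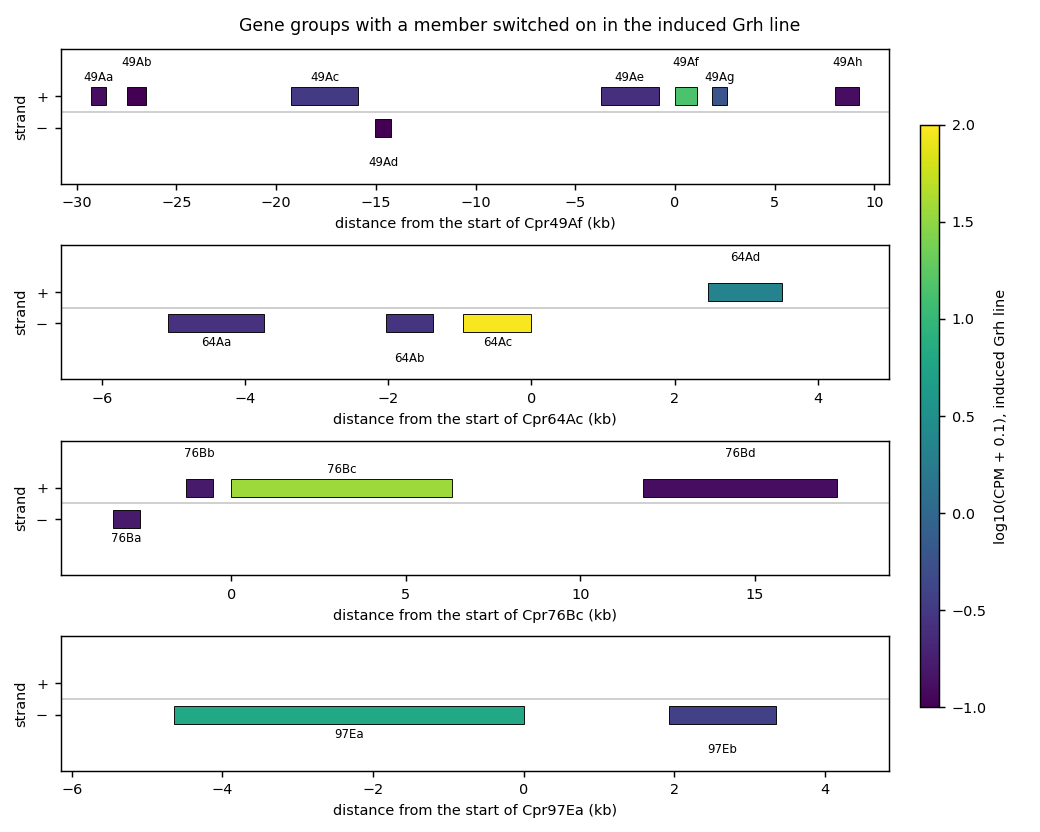
Positions of the CPR genes in the 4 bands that hold a gene switched on in induced Grh cells, by distance from that gene's start (kb) and strand, coloured by mean log10(CPM + 0.1) in induced Grh cells. In each band 1 gene is bright and its neighbours are dark, with Cpr64Ad at an intermediate colour.

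All 4 members of band 64A lie inside the span of CG43367, which is transcribed from the plus strand, so 3 of them, Cpr64Ac among them, oppose it. No exonic bases are shared, and CG43367 averaged 62.7 CPM in induced Grh cells against 96.5 in wild type at 100 µM. The kit does not keep strand, and whether reads of CG43367 add to the counts of these members was not tested. Cpr73D likewise overlaps the spans of Obp73a and Ogdh. Ogdh averaged 378 CPM in untreated wild type, 417 at 1000 µM, 356 in uninduced and 392 in induced Zld cells. Whether its reads add to the counts of Cpr73D was not tested either. Among genes within 10 kb that are not members, CG15005 near Cpr64Ac averaged 7.03 CPM in induced Grh cells against 0.133 in wild type at 100 µM, and CG14258 near Cpr97Ea 2.05 CPM against 0. These 2 were picked after their values were seen. In the same comparison asRNA:CR32252 near Cpr64Ac averaged 0.276 against 0.354 CPM and CG14257 near Cpr97Ea 0.813 against 0.478. Mmp1 near Cpr60D, which was not switched on, averaged 148 against 44.7 CPM. A link to the members was not tested. Over the genome, the 11 expressed members were 4 of 21 on 2R, 5 of 35 on 3L and 2 of 5 on 3R, and none of 5 on 2L or 4 on X.

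Zld switched on no member, but it went with a higher level of Cpr92A (FBgn0038714, 3R:19597502-19598955, minus strand), a structural cuticle protein gene expressed in every group. Cpr92A had 173 and 97 counts in induced Zld cells, 10.7 and 7.13 CPM, against 74 and 65 counts in wild type at 1000 µM, 4.49 and 3.91 CPM. In the uninduced Zld line it had 13 and 47 counts, 1.24 and 2.79 CPM. Both induced libraries lay above all 16 others, the highest of which was 4.90 CPM in wild type at 40 µM. Relative to wild type at 1000 µM it changed by 1.196 ± 0.28 on the log2 scale (edgeR adjusted p = 0.00787), and by 2.08 ± 0.32 against the uninduced line (adjusted p = 0.000574). The first call was lost without wild type replicate 2 or without induced replicate 1 (largest adjusted p = 0.115), and the second held under all 10 alternatives.

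Of 8 members that passed the filter in the Zld fit, 1 was called higher and 1 lower against wild type at 1000 µM, where 36.4% of genes tested were called, 19.1% higher and 17.3% lower. The lower one was Cpr49Ac, at 0.617 and 0.441 CPM against 1.09 and 1.69, with a log2 change of -1.26 ± 0.43 (edgeR adjusted p = 0.0430) that was lost in 8 of 10 alternatives. Against the uninduced Zld line, 5 were called higher and none lower, where 43.2% of genes were called, 23.0% higher and 20.1% lower. Besides Cpr92A these were Cpr64Ad (log2 1.83 ± 0.61), Cpr64Ac (1.66 ± 0.51), Cpr60D (1.58 ± 0.52) and Cpr73D (1.51 ± 0.40), with edgeR adjusted p from 0.0109 to 0.0348. None of those 4 was called against wild type at 1000 µM, where their log2 changes were 0.23, 1.19, 0.03 and 0.47 and Cpr64Ac had an adjusted p of 0.0632. Each of the 4 calls was lost with DESeq2. Cpr64Ac passed the filter on low counts only through induced Zld cells, so it had to be higher there. In the controls alone 6 members passed. Of these, Cpr92A, Cpr73D, Cpr60D and Cpr64Ad were called higher than in the uninduced line and none lower. Among all genes that passed in the same way, 21% were higher and 21.1% lower. With the filter on low counts dropped, Cpr49Aa (9 counts over both induced libraries against 0 in wild type at 1000 µM) and Cpr97Ea (11 against 1) were called higher than in wild type at 1000 µM as well, which made 4 of 52 members called (25.9% of genes). The interaction of line and copper, which asks whether induced differs from uninduced Zld cells by more than copper changed wild type, called none of 9 members (12.5% of genes, 5.96% higher and 6.54% lower); 1 had an unadjusted p under 0.05, and DESeq2 called none.

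In wild type cells some of the same genes were also called with copper alone. At 1000 µM, Cpr64Ad (1.21 and 2.11 CPM against 0.432 and 0.407 untreated), Cpr73D (1.21 and 1.69 against 0.648 and 0.697) and Cpr92A (4.49 and 3.91 against 2.05 and 2.44) were called higher, 3 of 9 members tested, where 29.2% of genes were called, 15.3% higher and 13.9% lower. Their log2 changes were 1.98 ± 0.57, 1.12 ± 0.37 and 0.92 ± 0.32, with edgeR adjusted p of 0.0215, 0.0408 and 0.0488. All 3 calls were lost when either untreated library or the second treated library was left out. Cpr92A was lost in 7 of 10 alternatives and Cpr73D in 7 of 9, DESeq2 among them. At 100 µM, 2 of 11 members were called higher and 1 lower, where 52.5% of genes were called, 25.4% higher and 27.0% lower. Cpr92A was higher, at 3.82 and 3.98 CPM (log2 0.77 ± 0.23, adjusted p = 0.0101), and was lost in 4 of 10 alternatives. The calls of Cpr76Bc (9 counts against 1 over both libraries) and Cpr97Ea (0 against 5) rest on so few counts that their fitted sizes are not given.

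Cpr50Cb (FBgn0033869, 2R:13794777-13805231, plus strand, 5 exons) was the only member called at 40 µM copper, and it had the highest level per kb of the family in wild type at 0, 40 and 100 µM, in both uninduced lines and in induced Twi cells. It had 299 and 209 counts in wild type at 40 µM, 10.5 and 10.3 CPM, against 54 and 56 counts in untreated wild type, 2.92 and 3.25 CPM. At 100 µM it was at 4.21 and 4.35 CPM and at 1000 µM at 3.16 and 2.59 CPM, so neither higher dose reached the level at 40 µM. The change at 40 µM was 1.80 ± 0.15 on the log2 scale (edgeR adjusted p = 0.000266) and held under all 10 alternatives; it was the only call among 6 members tested, where 40.5% of genes were called, 20.8% higher and 19.7% lower. The 3 copper groups share the untreated libraries.

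Induced Twi cells had the highest level of Cpr50Cb, 318 and 356 counts or 16.5 and 15.3 CPM, above both libraries of wild type at 40 µM. On the log2 scale the difference was 0.59 ± 0.13 (edgeR adjusted p = 0.0301), the only call among 6 members tested, where 10.5% of genes were called, 6.25% higher and 4.27% lower. It was lost with DESeq2 and without each of the 4 libraries in turn (largest adjusted p = 0.193). Of the 4 genes that Grh switched on, Cpr49Af had 4 and 3 counts in induced Twi cells and none in wild type at 40 µM, Cpr64Ac had 7 and 3 against 11 and 3, Cpr76Bc had 1 and 0 against 1 and 1, and Cpr97Ea had 0 and 0 against 1 and 2. No uninduced Twi group was analysed here, so the line and the factor cannot be told apart.

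Before induction neither line had a called member. In the uninduced Zld line against untreated wild type, 0 of 9 members were called (20.7% of genes, 10.4% higher and 10.2% lower), 0 had an unadjusted p under 0.05 and DESeq2 called 0. In the uninduced Grh line, in which grh was already at 40.4 CPM, 0 of 11 were called (23.7% of genes, 11.7% higher and 12% lower), 2 had an unadjusted p under 0.05 and DESeq2 called 0. The highest value of Cpr64Ac outside the induced Grh group was in 1 of these uninduced libraries, at 1.31 CPM, while its replicate was at 0.333. With the filter dropped, Cpr64Ac was called higher in the uninduced Grh line, 1 of 62 members (15.9% of genes).

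Whether the changes differed between lines was tested directly. The interaction of the Grh line with copper called 5 of 11 members higher and 1 lower, where 43.3% of genes were called, 24.1% higher and 19.2% lower: Cpr49Af, Cpr64Ac, Cpr64Ad, Cpr67B and Cpr97Ea higher and Cpr50Cb lower. The Zld effect minus the Grh effect, each against its own copper-treated wild type, was called for 6 of 12 members (42.6% of genes, 22.0% positive and 20.6% negative). It was negative for Cpr64Ac (-7.84 ± 1.00, adjusted p = 1.75e-05), Cpr76Bc, Cpr97Ea, Cpr67B (-3.63 ± 0.81, adjusted p = 0.00193) and Cpr64Ad, and positive for Cpr92A (1.73 ± 0.53, adjusted p = 0.0156). The Grh effect minus the Twi effect was called for 7 of 12 (40.1% of genes, 18.5% positive and 21.6% negative), among them Cpr64Ac (9.32 ± 1.14, adjusted p = 1.12e-05) and Cpr76Bc (7.99 ± 2.15, adjusted p = 0.00710), both higher, and Cpr50Cb (-1.53 ± 0.27, adjusted p = 0.000274). The Zld effect minus the Twi effect was called for 3 of 12 (21.1% of genes, 11.1% positive and 10.0% negative). Comparisons of 1 line share its libraries, so these calls are not independent of those above.

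The rest of the cuticle pathway was read from lists written by gene function. In the Grh fit these counts stand beside 33.6% of all tested genes called higher and 27.2% lower against wild type at 100 µM, and 16.7% higher and 10.6% lower against the uninduced line. Genes that passed the filter only through induced Grh cells had to be higher there, so for each list the genes that passed it in the 4 control libraries alone are also counted.

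Of 54 other cuticle protein genes (the Lcp, Ccp, Twdl and related families), 5 were tested; 4 were called higher than in wild type at 100 µM and 3 higher than in the uninduced line. The pupal cuticle gene Pcp was among both (log2 5.82 ± 0.34 against wild type, edgeR adjusted p = 6.11e-10). Only 1 of the 5, TwdlU, passed the filter in the controls, and it was called in neither comparison, so the count says little beyond the genes. Their summed level was 22.7 and 15.3 CPM in induced Grh cells against 2.65 and 2.38 CPM in wild type at 100 µM, well under that of the CPR genes. Of 22 genes of chitin synthesis and modification, 17 were tested, and 14 were called higher and none lower in each comparison. The chitin synthase kkv changed by 6.70 ± 0.34 against wild type (adjusted p = 5.48e-10). It passed the filter only through induced Grh cells, so it had to be higher there. Of the 8 chitin genes that passed in the controls, 5 were higher than in wild type and 6 higher than in the uninduced line, where 31.8% and 14.4% of all genes that passed in the same way were higher.

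Of 12 tanning genes 9 were tested, and 6 were higher in both comparisons, including Ddc, the dopa decarboxylase of cuticle hardening (2.71 ± 0.30 against wild type, adjusted p = 9.24e-07). Lower were 3 against wild type and 1, yellow, against the uninduced line. Of the 8 tanning genes that passed the filter in the controls alone, 5 were higher in each comparison, and 3 and 1 were lower. Among all genes that passed in the same way, 31.8% were higher and 28.4% lower against wild type. Against the uninduced line those shares were 14.4% and 11.1%. Of 14 regulators of moulting and cuticle genes 12 were tested, and their balance depended on the control: 3 were higher and 5 lower than in wild type at 100 µM, but 5 higher and 1 lower than in the uninduced line. The 11 regulators that passed in the controls alone gave the same numbers of calls. EcR, the ecdysone receptor, was called lower against wild type (log2 -1.01 ± 0.05) and higher against the uninduced line (0.32 ± 0.06). Eip74EF, an ecdysone-induced factor, was likewise lower against the first (-0.51 ± 0.07) and higher against the second (0.48 ± 0.08). Copper at 100 µM alone raised both in wild type cells, EcR by 1.65 ± 0.05 and Eip74EF by 0.67 ± 0.08.

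For Zld, 19.1% of all tested genes were called higher and 17.3% lower against wild type at 1000 µM, and 23.0% and 20.1% against the uninduced line. The 3 tested other cuticle protein genes, TwdlU, TwdlF and TwdlG, were not called against wild type but were all called higher than in the uninduced line (log2 1.42, 3.20 and 2.39). TwdlF passed the filter only through induced Zld cells, so it had to be higher there. The other 2, TwdlU and TwdlG, passed in the controls alone. Of 13 tested chitin genes 5 were higher and 2 lower against wild type, and 6 higher and 2 lower against the uninduced line. The chitin synthase kkv changed by 4.603 ± 0.46 against wild type (edgeR adjusted p = 4.06e-05). It passed the filter only through induced Zld cells, so it had to be higher there. Of the 9 chitin genes that passed the filter in the controls alone, 2 were higher and 2 lower against wild type. Among all genes that passed in the same way, 17.6% were higher and 18.1% lower. Against the uninduced line 3 of these chitin genes were higher and 2 lower, where 21% and 21.1% of all such genes were. The 7 tested tanning genes gave 2 higher and none lower against wild type, and 2 higher and 1 lower against the uninduced line. The 11 tested regulators gave 6 higher and 2 lower against wild type, and 5 higher and 3 lower against the uninduced line. For Twi, where 6.25% of all tested genes were higher and 4.27% lower, none of 2 other cuticle protein genes was called. Higher for Twi were 3 of 10 chitin genes, 1 of 9 tanning genes and none of 11 regulators, and lower were none, 1 and 2. Among the 3 chitin genes, Cht2 passed the filter only through induced Twi cells, so it had to be higher there. Of the 7 chitin genes that passed in the controls alone, 2 were higher and none lower. Among all genes that passed in the same way, 5.28% were higher and 4.48% lower.

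Markers of cells that make cuticle were read beside the Grh result. The 7 epithelial markers summed to 1023 and 1016 CPM in induced Grh cells and 982 and 945 CPM in wild type at 100 µM, with 4 of 7 at 1 CPM or more in untreated wild type. Most of each sum was cora, at 897 and 904 CPM in the first group and 862 and 833 CPM in the second. The sums therefore say little about the list as a whole. Of 6 tested, Fas3 and cora were called higher than in wild type at 100 µM, where 33.6% of all genes were, and Fas3 and crb higher than in the uninduced line; Fas3 was at 20.5 and 15.5 CPM against 0.712 and 1.19 CPM, and also at 19.0 and 20.1 CPM in wild type at 40 µM. The 5 tracheal markers, 3 of which are also in the chitin list, summed to 15.4 and 9.08 CPM against 2.52 and 3.07 CPM, and all 3 tested were called higher, of which 1, serp, passed the filter in the controls alone. The 11 plasmatocyte markers summed to 3291 and 3327 CPM against 2826 and 2821 CPM, and 3 were called higher and 5 lower, where 27.2% of all genes were lower. Against the uninduced line, at 3345 and 3009 CPM, 2 were higher and 4 lower; the higher ones, Col4a1 and vkg, were lower against wild type, and Sr-CI, lower here, was higher against wild type. The part of these genes in the CPR result was not tested.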

How the data were processed

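The deposited tables hold counts, whole numbers of reads per gene that the authors did not normalize, and a gene length in bases, the other unit, used to give CPM per kb. The authors used HISAT2 2.1.0, the dm6 build and featureCounts (Subread 2.0), per the submitters' processing notes, which also name DESeq2. The kit named in the labels' protocols does not keep strand. Untreated wild type is identical in all 3 tables and was used once. Symbols were joined by gene identifier for 17561 of 17609 genes. CPM was scaled by library size alone. Each of 15 comparisons was fitted with edgeR 4.0.16 in R 4.3.3 (two-sided quasi-likelihood F test, robust, after filterByExpr and TMM; genes called at a Benjamini-Hochberg adjusted p under 0.05 over all genes tested), with DESeq2 1.42.0 among the alternatives; the fits were tested on simulated data. Counting intervals are exact binomial at 95%. Named with values were members at 1 CPM or more in both libraries of a group and members called against copper-treated wild type. Other members given with counts or levels, such as neighbours of the switched-on genes and genes called only without the filter, were chosen after their values were seen. The members and lists were chosen with earlier results of these data known. The symbols obst-C, obst-D, Dat, AANAT1 and Hr46 of the lists matched no gene. Promoter motifs and protein sequences were not analysed here.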

Additional observations from a re-analysis of the deposited data

Results flagged for a closer look

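Differences between effects that passed the test (edgeR, adjusted over all genes) are given here as log2 values, with no explanation. The Grh line responded to copper differently from wild type for Cpr97Ea by 11.1 (adjusted p = 3.18e-05), Cpr49Af by 11.05 (0.0100), Cpr64Ac by 7.07 (0.00221), Cpr67B by 2.56 (0.00569), Cpr64Ad by 2.20 (0.0144) and Cpr50Cb by -0.87 (0.0323). Cpr97Ea and Cpr49Af had 0 counts in wild type at 100 µM, so their fitted sizes depend on the prior count and are no estimate of a fold.

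The Zld effect minus the Grh effect was 1.73 for Cpr92A (adjusted p = 0.0156), -2.46 for Cpr64Ad (0.0111), -3.63 for Cpr67B (0.00193), -6.47 for Cpr97Ea (0.0388), -7.63 for Cpr76Bc (0.00227) and -7.84 for Cpr64Ac (1.75e-05). The Zld effect minus the Twi effect was 6.73 for Cpr97Ea (0.0189), 1.53 for Cpr92A (0.0467) and -0.90 for Cpr50Cb (0.0344). The first of these 3 rests on 11 counts over both induced Zld libraries and on 0 in induced Twi cells. Cpr97Ea had 0 counts in wild type at 100 µM, so its -6.47 above depends on the prior count and is no estimate of a fold. That call was lost in 7 of 13 alternatives.

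The Grh effect minus the Twi effect was 13.2 for Cpr97Ea (adjusted p = 0.00018), 9.32 for Cpr64Ac (1.12e-05), 7.99 for Cpr76Bc (0.00710), 2.93 for Cpr67B (0.00769), 2.60 for Cpr64Ad (0.0134), -1.53 for Cpr50Cb (0.000274) and -2.72 for Cpr49Ac (0.0457). Cpr97Ea had 0 counts in wild type at 100 µM and in induced Twi cells, so its 13.2 depends on the prior count and is no estimate of a fold. Groups of 2 libraries are too small to look for a deviating one.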

How the results depend on the processing

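Of 51 gene results, 21 kept their call under every alternative, 30 lost it under at least 1, and 0 changed direction. The kept ones include the rises of Cpr64Ac, Cpr76Bc, Cpr49Af, Cpr97Ea, Cpr67B and Cpr64Ad with Grh in both comparisons. The cause of the changes below was not tested. For induced Zld against wild type (2 called), DESeq2, the stricter filter and the replicate block each gave 1, no filter and untreated wild type as control each gave 4, and leaving out 1 library gave 0 to 1. Against the uninduced Zld line (5), DESeq2 gave 1, the stricter filter 2, the replicate block 3, and leaving out 1 library 1 to 4. For Grh against wild type (8) and against the uninduced line (6), leaving out 1 library gave 8 to 12 and 6 to 10; the 10 came without induced Grh replicate 2. For Twi (1), DESeq2 and every left-out library gave 0, and all 18 libraries in 1 fit gave 2, Cpr49Af added. For copper in wild type, 40 µM (1) gave 2 with no filter and 1 to 3 with a library left out, the 3 without the first treated library; 100 µM (3) gave 0 with DESeq2, 1 with all 18 libraries and 0 to 2 with a library left out; 1000 µM (3) gave 1 with DESeq2, the replicate block or all 18 libraries, and 0 to 1 with a library left out. The uninduced Grh line (0) gave 1 with no filter and 0 to 2 with a library left out, the 2 without untreated wild type replicate 2. The Zld interaction (0) gave 2 with no filter, 1 with all 18 libraries and 0 to 1 with a library left out, and the Grh interaction (6) 3 to 7, the 3 without untreated wild type replicate 1. The Zld minus Grh effect (6) gave 3 to 5, the 3 without wild type replicate 2 at 1000 µM, and the Zld minus Twi effect (3) 1 to 3. Genes switched on by Grh (4) were 2 with 0 counts required in the controls, 3 against untreated wild type, 5 with expression set at 0.5 CPM (Cpr11A added), and 4 to 5 with a library left out. Silent genes (7) were 38 at no more than 3 counts, 59 under 1 CPM, and 9 to 12 with 1 replicate number left out.

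Same-numbered libraries deviated together with correlations of -0.186 to 0.633 over 6579 genes, each comparison with only 2 pairs, so the numbers were taken as names and not as pairs; apart from the values above, the replicate block changed a count by at most 1. Without a filter on low counts, 12 of 60 members were called with Grh (38.8% of genes). At these depths a gene under 0.105 to 0.287 CPM cannot be told from silence.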
